A study of Macaca mulatta with 6 samples.

Results

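The sodium channel genes SCN1A, SCN2A, SCN3A, SCN4A, SCN7A, SCN8A, SCN9A and SCN4B were followed in tracheal tissue of rhesus monkeys. They were chosen by symbol, and all 8 symbols were found among the 28536 genes of the count table. RNA came from 3 libraries of an Oxy@Lipo/Gel group, in which a tracheal lubricant coated with that material was used in an intubation model under general anaesthesia, and from 3 libraries of a control group given normal saline. The labels state neither what Oxy@Lipo/Gel contains nor whether the control animals were intubated, although the study design speaks of traditional catheters as the comparison. No age, sex or strain was given. Replicates are called biosamples without a statement that each is a separate animal, so p-values describe the spread between samples, and that spread may be technical. The labels' tissue entry is a lubricated catheter for all 6 libraries, their treatment text names trachea, and their extraction text speaks of cell lines.

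Voltage-gated sodium channels carry the rising phase of the action potential. Each has 1 large alpha subunit, which forms the pore and holds the voltage sensors, and smaller beta subunits that adjust its gating and its place in the membrane. Local anaesthetics block conduction by binding inside the pore of the alpha subunit. The airway wall receives vagal sensory and autonomic fibres, and the cell bodies of the sensory fibres lie in ganglia outside the wall. Of the 8 genes, SCN7A encodes an alpha-type protein, Nax, that is known as a sensor of extracellular sodium and not as a typical voltage-gated channel, and SCN4B encodes an auxiliary beta subunit. The other 6 encode voltage-gated alpha subunits.

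Library totals ran from 20089109 to 23405294 counts in the Oxy@Lipo/Gel group and from 17097177 to 22194965 counts in the control group. A count of 3, taken here as the detection floor, equals 0.124 to 0.203 CPM (counts scaled to library size, normalised by TMM). Markers of a piece of airway wall were present in each library, and their levels were uneven. Summed over 10 epithelial genes, CPM ran from 3742 to 6029 in Oxy@Lipo/Gel libraries and from 4685 to 7176 in controls. Within that sum, control replicate 2 was the lowest library for EPCAM, CDH1, KRT8, FOXJ1, SCGB1A1, MUC5B and CFTR. It was the highest for KRT5, KRT19 and TP63. In control replicates 1, 2 and 3, FOXJ1 measured 821, 121 and 1023 CPM and TP63 measured 212, 410 and 86.1 CPM. The sum of 8 chondrocyte genes was 259 to 598 CPM in Oxy@Lipo/Gel libraries and 54.4 to 102 CPM in controls. CNMD, COL11A1 and HAPLN1 were the 3 of these genes past edgeR's test (0 to 3 genes with a library left out), where 1.54% of all tested genes passed. The sum of 12 smooth muscle genes was 2408, 18955 and 25657 CPM in Oxy@Lipo/Gel replicates 1, 2 and 3, against 3291, 1629 and 1095 CPM in control replicates 1, 2 and 3. Oxy@Lipo/Gel replicate 1 thus lay within the control range for smooth muscle.

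The 8 genes were low in every library. Their counts per library ran from 1 to 277, and 6 of the 8 stayed below 1 on the per-length scale (FPKM, the deposited count scaled by gene length and library size) in all 6 libraries. Ordered by mean FPKM over the 6 libraries, SCN4A came first at 0.710, followed by SCN7A at 0.663, SCN8A at 0.637, SCN4B at 0.487, SCN9A at 0.279, SCN3A at 0.206, SCN2A at 0.116 and SCN1A at 0.0363. No neighbours in this order differed by more than 1 SD of their within-library difference. Summed over the 8 genes, FPKM was 2.71, 3.46 and 4.17 in Oxy@Lipo/Gel replicates 1, 2 and 3, against 2.69, 2.28 and 3.50 in control replicates 1, 2 and 3, and the groups overlapped.

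**Figure D1:**
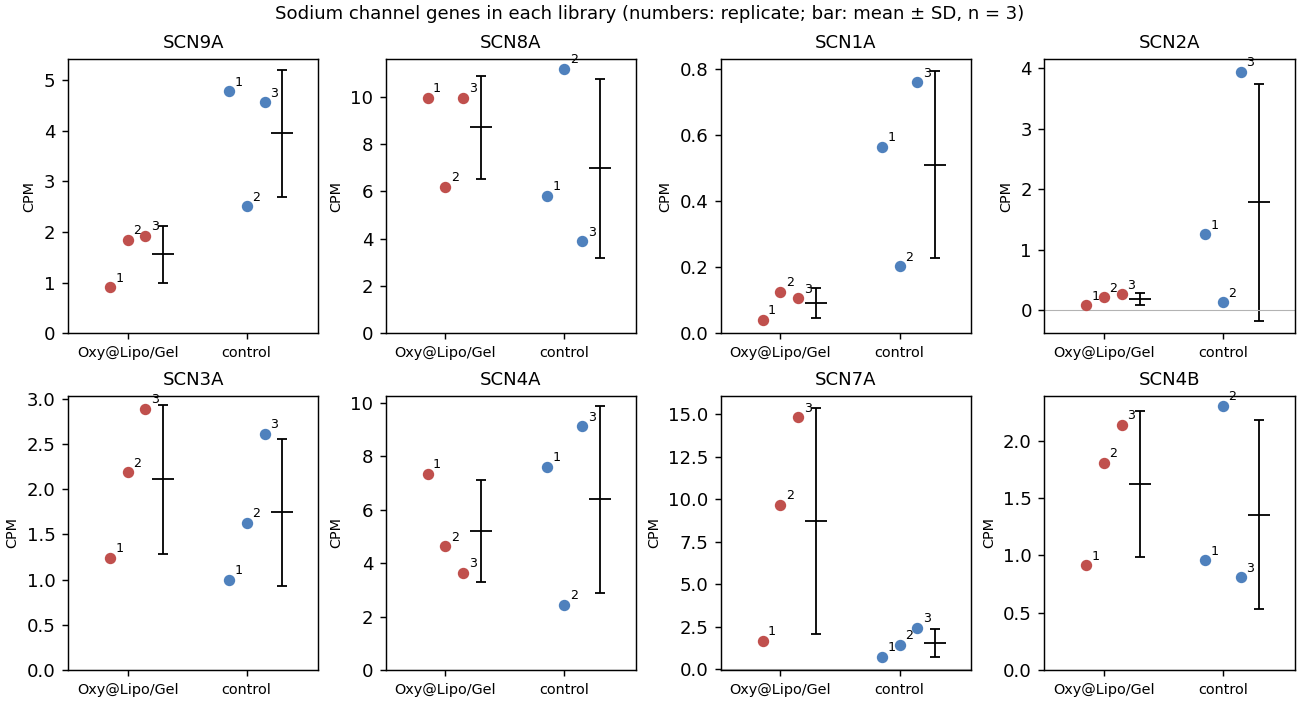
CPM of each of the 8 genes (vertical axis, linear, each panel with its own scale; the SCN2A axis starts below 0 to hold its error bar) in the Oxy@Lipo/Gel and control libraries. Points are libraries numbered by replicate and bars are mean ± SD (n = 3). For SCN9A and SCN1A every Oxy@Lipo/Gel point lies below every control point, and for SCN7A 2 Oxy@Lipo/Gel points lie far above the rest. For SCN1A, Oxy@Lipo/Gel replicate 2 and control replicate 2 held 3 counts each and differ here only by library size.

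The comparison of the groups asked whether expression of these channels differed with the modified lubricant. None of the 6 genes past the count filter passed in edgeR at an adjusted p of 0.05, where 1.54% of the 18676 tested genes did (0.851% with higher values in Oxy@Lipo/Gel libraries and 0.685% with lower values). In DESeq2, SCN7A and SCN9A passed (adjusted p = 0.0170 and 0.0327), where 13.3% of all tested genes passed. At an unadjusted edgeR p under 0.05 the count was 2 of 6, against 23.3% of all genes. In limma-voom 0 of the 6 passed and 1 had an unadjusted p under 0.05. The largest differences among the 6 were a higher SCN7A and a lower SCN9A in the Oxy@Lipo/Gel group. The groups did not overlap in 1 of the 6, SCN9A, against 29.9% of all tested genes. In bulk tissue fewer cells of a type and less RNA per cell cannot be told apart. Of the 6, 4 had log2 fold changes above 0 and 2 below 0, with a median of 0.27 beside -0.04 over all tested genes. SCN1A and SCN2A did not pass the count filter.

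**Figure D2:**
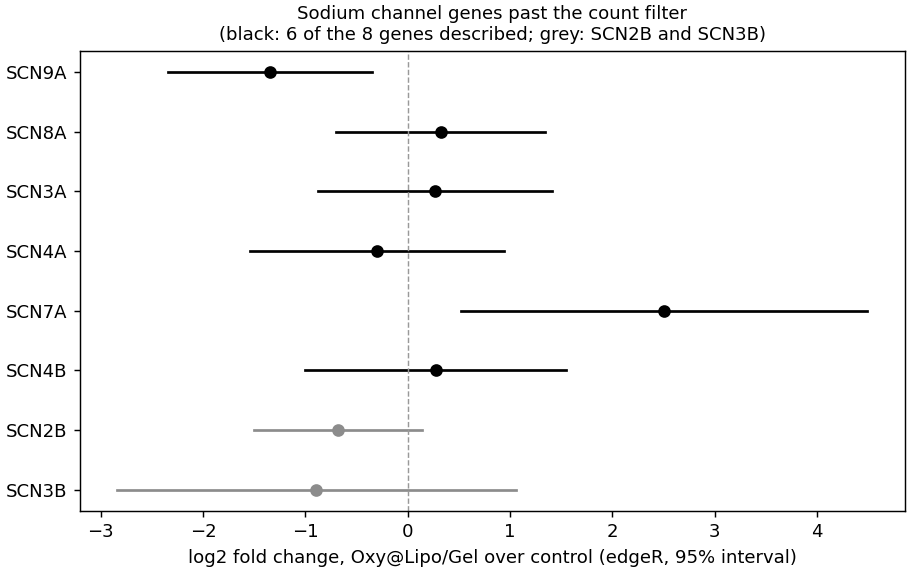
Log2 fold changes of Oxy@Lipo/Gel over control (horizontal axis) with edgeR 95% intervals for the 6 described genes past the count filter (black) and the beta subunit genes SCN2B and SCN3B (grey). The intervals of SCN7A (0.52 to 4.49) and SCN9A (-2.34 to -0.34) exclude 0 before adjustment for the number of genes tested.

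SCN9A encodes Nav1.7, a channel of sensory and sympathetic neurons whose loss in humans abolishes the sense of pain. Its counts were 22, 44 and 36 in Oxy@Lipo/Gel replicates 1, 2 and 3, against 110, 37 and 96 in control replicates 1, 2 and 3. On the CPM scale the Oxy@Lipo/Gel libraries had 0.912, 1.85 and 1.93 and the control libraries 4.78, 2.51 and 4.56, so the groups did not overlap and the controls were higher. Of all tested genes, 17.7% had this order. The means were 1.56 ± 0.566 and 3.95 ± 1.25 CPM in Oxy@Lipo/Gel and control libraries (SD, n = 3 each). The log2 fold change was -1.34 ± 0.42 (SE), with a 95% interval of -2.34 to -0.34, and did not pass (edgeR adjusted p = 0.138). Control replicate 2 stood closest to the Oxy@Lipo/Gel libraries, and leaving it out gave a log2 fold change of -1.58 (edgeR adjusted p = 0.110). The unadjusted p stayed under 0.05 in 15 of the 16 alternative settings, over which the adjusted p ran from 0.0327 to 0.403.

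SCN8A encodes Nav1.6, the main channel of mature nodes of Ranvier, where myelinated axons renew the action potential. Its counts were 240, 147 and 186 in the Oxy@Lipo/Gel libraries, against 134, 165 and 82 in the control libraries. The means were 8.70 ± 2.17 CPM in the Oxy@Lipo/Gel group and 6.97 ± 3.78 CPM in the control group. The highest and the lowest library were both controls, replicates 2 and 3, with 11.2 and 3.90 CPM. The log2 fold change of 0.33 did not pass (edgeR adjusted p = 0.679). Its 95% interval, -0.70 to 1.35, holds changes in either direction.

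SCN1A encodes Nav1.1, a channel of central inhibitory neurons and of a subset of sensory neurons. It had 1, 3 and 2 counts in the Oxy@Lipo/Gel libraries, against 13, 3 and 16 in the control libraries. All 3 Oxy@Lipo/Gel libraries and control replicate 2 were at or under the floor of 3 counts. The summed counts, 6 in the Oxy@Lipo/Gel group and 32 in the control group, gave a depth-adjusted ratio of 0.166 (exact 95% interval 0.0566 to 0.402, counting error only). Fitted without the count filter, the log2 fold change was -2.45 and did not pass (edgeR adjusted p = 0.141, and 0.0765 to 0.357 over the settings that tested it).

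SCN2A encodes Nav1.2, a channel of central axons. Its counts were 2, 5 and 5 in the Oxy@Lipo/Gel libraries, against 29, 2 and 83 in the control libraries. The control libraries thus held between 2 and 83 counts, and the groups overlapped because control replicate 2 held as few counts as Oxy@Lipo/Gel replicate 1. The summed counts, 12 in the Oxy@Lipo/Gel group and 114 in the control group, gave a ratio of 0.0930 (exact 95% interval 0.0467 to 0.169, counting error only), an interval that takes no account of the spread between libraries. Fitted without the count filter, the log2 fold change was -3.26 and did not pass (edgeR adjusted p = 0.165, and 0.0728 to 0.442 over the settings that tested it).

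Several neuronal genes were highest in control replicate 3, the library with the most SCN2A. SNAP25, a protein of synaptic vesicle release, measured 1.29, 2.74 and 6.32 CPM in the Oxy@Lipo/Gel libraries, against 17.4, 1.42 and 80.0 CPM in control replicates 1, 2 and 3. FGF14, an intracellular partner of sodium channels in neurons, had the same highest library, with 7, 14 and 6 counts in the Oxy@Lipo/Gel libraries and 31, 8 and 81 in the control libraries. Neither passed (edgeR adjusted p = 0.200 and 0.154). The 18 listed neuron and axon genes summed to 57.5, 97.3 and 170 CPM in the Oxy@Lipo/Gel libraries, against 91.3, 58.9 and 323 CPM in the control libraries, and none was at 0 in all 6. In edgeR 0 of 15 tested genes of that list passed, 3 had an unadjusted p under 0.05, and DESeq2 called 2. The shares over all tested genes were 1.54%, 23.3% and 13.3%. The list's median log2 fold change was -0.33, and 1.46 without control replicate 3. NTRK2, the receptor of the neurotrophin BDNF, measured 16.2, 20.2 and 32.6 CPM in the Oxy@Lipo/Gel libraries, against 37.6, 36.7 and 34.3 CPM in the control libraries, without overlap (edgeR adjusted p = 0.205). Other listed genes were higher in the Oxy@Lipo/Gel group. RET, the receptor of glial-derived neurotrophic factors, measured 2.03, 2.86 and 5.09 CPM in the Oxy@Lipo/Gel libraries, against 1.00, 0.882 and 1.66 CPM in the control libraries, without overlap (edgeR adjusted p = 0.137). PRPH, the peripheral neuron filament peripherin, averaged 9.99 ± 7.92 CPM in Oxy@Lipo/Gel libraries and 1.93 ± 2.20 CPM in controls (edgeR adjusted p = 0.222). The part of neuronal RNA in the SCN1A and SCN2A values was not tested.

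SCN3A encodes Nav1.3, a channel best known from the developing nervous system. It had 30, 52 and 54 counts in the Oxy@Lipo/Gel libraries, against 23, 24 and 55 in the control libraries. The groups overlapped over nearly their whole range, at 2.11 ± 0.827 CPM in Oxy@Lipo/Gel libraries and 1.75 ± 0.813 CPM in controls. The log2 fold change of 0.27 (95% interval -0.88 to 1.41) did not pass (edgeR adjusted p = 0.768).

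SCN4A encodes Nav1.4, the channel of skeletal muscle fibres. Its counts were 177, 110 and 68 in the Oxy@Lipo/Gel libraries, against 175, 36 and 192 in the control libraries. The Oxy@Lipo/Gel libraries had 7.34, 4.63 and 3.64 CPM and the control libraries 7.61, 2.44 and 9.12 CPM. The Oxy@Lipo/Gel libraries all lay inside the control range. The log2 fold change of -0.30 had a 95% interval of -1.54 to 0.94 (edgeR adjusted p = 0.759). The 16 listed skeletal muscle genes summed to 83.3, 113 and 145 CPM in the Oxy@Lipo/Gel libraries, against 121, 188 and 86.5 CPM in the control libraries. TNNI2, a troponin of fast muscle fibres, made up much of that sum, and the other 15 genes summed to 62.9, 86.1 and 94.95 CPM in the Oxy@Lipo/Gel libraries, against 76.6, 83.5 and 66.4 CPM in the control libraries. The groups overlapped in both sums, and the second was computed after the values were seen. MB encodes the muscle oxygen store myoglobin. It measured 35.4, 23.2 and 13.8 CPM in the Oxy@Lipo/Gel libraries, against 28.1, 4.41 and 26.3 CPM in the control libraries. Control replicate 2 was the lowest library for MB as for SCN4A, but also for FOXJ1 and other epithelial genes, so this order is not particular to muscle genes. Other listed skeletal muscle genes had the opposite order, and ACTA1, CKM, RYR1, TNNC2, TNNI2 and TTN were highest in control replicate 2. RYR1 measured 2.74, 3.16 and 3.21 CPM in the Oxy@Lipo/Gel libraries, against 4.13, 9.90 and 4.51 CPM in the control libraries (edgeR adjusted p = 0.191). PYGM, which is part of both sums, had the other direction. It measured 1.87, 25.3 and 39.3 CPM in the Oxy@Lipo/Gel libraries, against 4.82, 4.14 and 5.18 CPM in the control libraries (edgeR adjusted p = 0.210). MB, TNNI2 and these genes were singled out after their values were seen. In edgeR 0 of 13 tested skeletal muscle genes passed, 2 had an unadjusted p under 0.05, and DESeq2 called 0, beside 1.54%, 23.3% and 13.3% of all tested genes. None of the listed muscle genes was at 0 in all libraries, and MYH7 and MYLPF were not analysed here.

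SCN7A, the gene of Nax, is known from glia and from Schwann cells that do not form myelin. It had 40, 230 and 277 counts in Oxy@Lipo/Gel replicates 1, 2 and 3, against 17, 21 and 51 in control replicates 1, 2 and 3. In CPM the Oxy@Lipo/Gel libraries had 1.66, 9.68 and 14.8 and the control libraries 0.739, 1.42 and 2.42. Oxy@Lipo/Gel replicates 2 and 3 stood above all other libraries, while replicate 1 lay between control replicates 2 and 3, so the groups overlapped. The means were 8.73 ± 6.64 CPM in Oxy@Lipo/Gel libraries and 1.53 ± 0.847 CPM in controls. The log2 fold change was 2.51 ± 0.83 (SE; 95% interval 0.52 to 4.49) and did not pass (edgeR adjusted p = 0.151). Leaving out Oxy@Lipo/Gel replicate 1 gave 3.00, which passed (edgeR adjusted p = 0.0477), where 2.74% of 19049 genes were called higher. Leaving out any other single library gave 1.89 to 3.02, and none of these passed. Over the 16 alternative settings the adjusted p ran from 0.0170 to 0.407.

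Of 17 listed Schwann cell and myelin genes, 10 had their highest values in the same 2 libraries and 7 did not, a count made after the values were seen. The share of all tested genes with this order was not computed, so the count gives no result particular to these genes. By root mean square difference of centred log2 CPM over the 6 libraries, the genes nearest to SCN7A among 14117 compared included FOXD3, at 0.277, and NRN1, at 0.283, where SCN7A itself spread by 1.49 around its mean. FOXD3, a transcription factor of neural crest and early Schwann cells, measured 0.539, 4.88 and 7.07 CPM in the Oxy@Lipo/Gel libraries, against 0.261, 0.339 and 0.855 CPM in the control libraries.

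The 17 genes, FOXD3 among them, summed to 244, 433 and 511 CPM in the Oxy@Lipo/Gel libraries, against 193, 187 and 313 CPM in the control libraries. None of them was at 0 in all 6. ERBB3 alone held 148, 119 and 116 CPM of the sums in the Oxy@Lipo/Gel libraries, and 102, 111 and 88.5 CPM in the control libraries. Of these 17, 14 had log2 fold changes above 0 and the median was 1.26 (-0.04 over all tested genes), with 2.01 when control replicate 3 was left out and 0.81 when control replicate 2 was left out. In edgeR 0 passed, 7 had an unadjusted p under 0.05, and DESeq2 called 3. Of all tested genes, 1.54% passed in edgeR, 23.3% had an unadjusted edgeR p under 0.05, and DESeq2 called 13.3%. MBP, myelin basic protein, had the other direction, with 12.2, 24.4 and 18.5 CPM in the Oxy@Lipo/Gel libraries, against 26.0, 10.8 and 60.9 CPM in the control libraries. MAL was highest in control replicate 3, EGR2 in control replicate 2 and ERBB3 in Oxy@Lipo/Gel replicate 1. These 4 were named after their values were seen. SOX10, the lineage factor of Schwann cells, measured 10.8, 24.3 and 48.5 CPM in the Oxy@Lipo/Gel libraries, against 4.04, 4.88 and 5.42 CPM in the control libraries, and did not pass (edgeR adjusted p = 0.0755). Smooth muscle sums were highest in Oxy@Lipo/Gel replicates 2 and 3 too, and so was the sum of 8 fibroblast genes, at 310, 1213 and 1379 CPM in the Oxy@Lipo/Gel libraries, against 323, 387 and 403 CPM in the control libraries. In edgeR 0 of 12 smooth muscle genes and 0 of 8 fibroblast genes passed, 12 and 4 had an unadjusted p under 0.05, and DESeq2 called 12 and 2. The part of tissue make-up in the SCN7A difference was not tested.

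**Figure D3:**
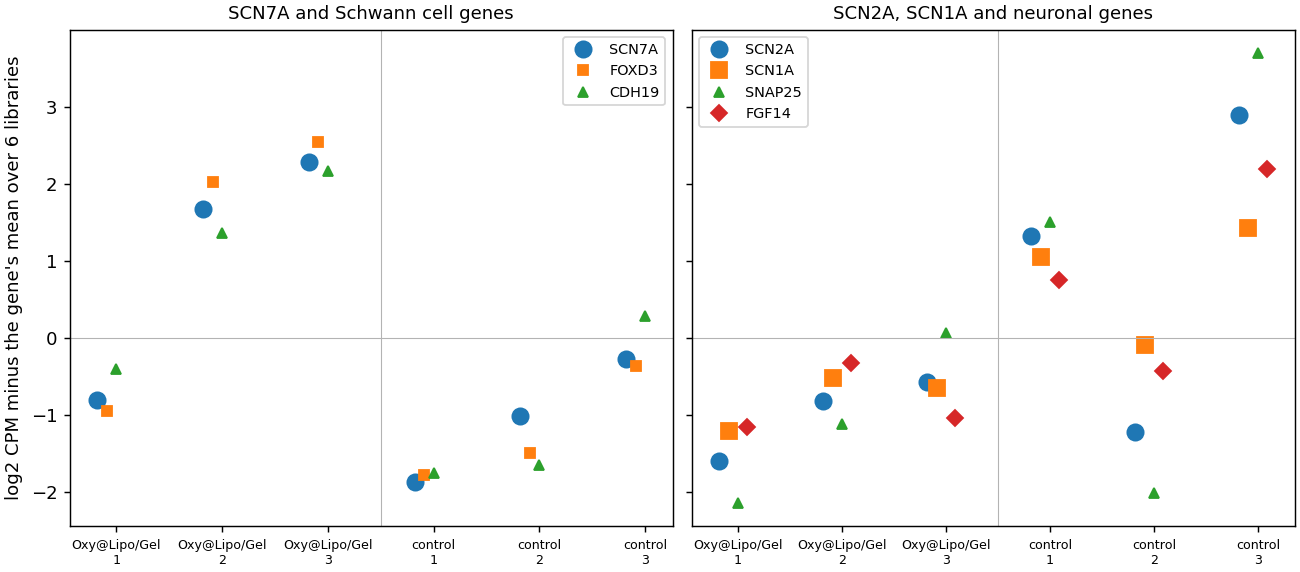
Log2 CPM minus each gene's mean over the 6 libraries (vertical axis) by library. On the left, SCN7A and the Schwann cell genes FOXD3 and CDH19 are high in Oxy@Lipo/Gel replicates 2 and 3. On the right, SCN2A, SCN1A, SNAP25 and FGF14 are highest in control replicate 3. The genes drawn are a selection, and FOXD3 was among the genes nearest to SCN7A by pattern. Listed genes with other orders are not drawn, such as MBP, MAL, EGR2 and ERBB3 for Schwann cells and PRPH and RET for neurons.

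SCN4B encodes the beta4 subunit, which joins alpha subunits by a disulfide bond and takes part in resurgent current. It had 22, 43 and 40 counts in the Oxy@Lipo/Gel libraries, against 22, 34 and 17 in the control libraries. At 1.62 ± 0.636 CPM in Oxy@Lipo/Gel libraries and 1.36 ± 0.825 CPM in controls, the difference was smaller than the spread within either group. The log2 fold change of 0.27 ± 0.53 (SE) did not pass (edgeR adjusted p = 0.786).

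The make-up of the family differed between libraries. SCN7A made up 8.95%, 37.6% and 43.8% of the summed FPKM of the 8 genes in Oxy@Lipo/Gel replicates 1, 2 and 3, against 3.77%, 7.14% and 9.84% in control replicates 1, 2 and 3. It was the leading gene of Oxy@Lipo/Gel replicates 2 and 3, whereas SCN4A led in Oxy@Lipo/Gel replicate 1 and in control replicates 1 and 3, and SCN8A led in control replicate 2. SCN9A made up 3.73%, 5.45% and 4.31% in the Oxy@Lipo/Gel libraries, against 18.5%, 9.53% and 14.0% in the control libraries. The ratio of SCN7A to SCN9A in FPKM was 2.40, 6.91 and 10.2 in the Oxy@Lipo/Gel libraries, against 0.204, 0.750 and 0.702 in the control libraries. SCN7A was thus above SCN9A in 3 of 3 Oxy@Lipo/Gel libraries and in 0 of 3 controls. This pair was set side by side after its values were seen, and the ratio was given no test.

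**Figure D4:**
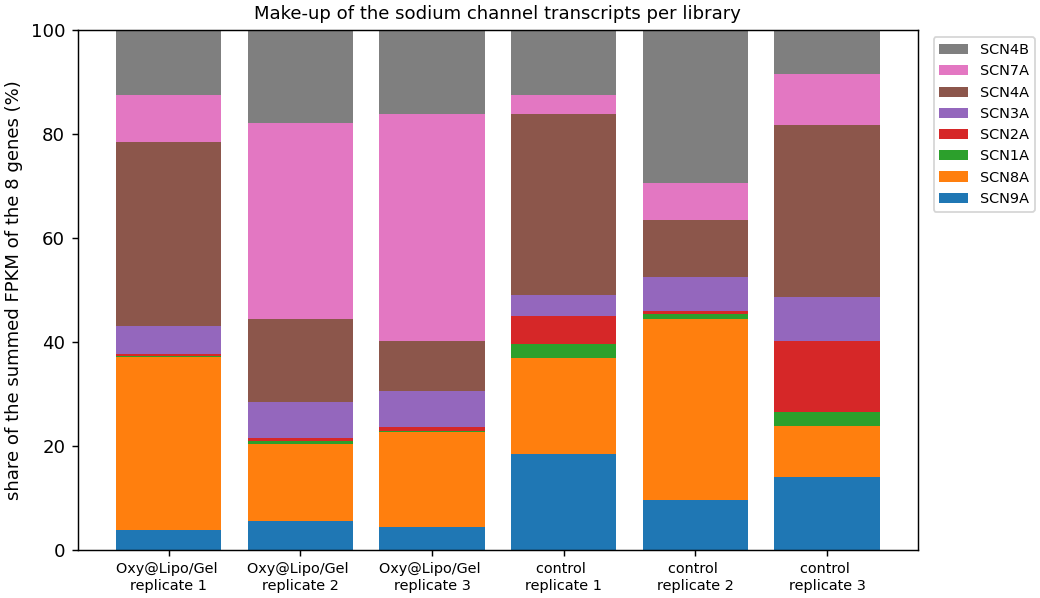
Share of the summed FPKM of the 8 genes (vertical axis, percent) held by each gene in each library, Oxy@Lipo/Gel libraries on the left and controls on the right. SCN7A holds 37.6% and 43.8% in Oxy@Lipo/Gel replicates 2 and 3 and at most 9.84% elsewhere.

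SCN7A and SCN9A lie close together in the genome. In the RefSeq gene table of the rhesus assembly T2T-MMU8v2.0, used here for gene order alone, SCN3A is next to SCN2A, SCN1A is next to SCN9A, and 1 unnamed coding gene separates SCN9A from SCN7A. These neighbours did not all share 1 pattern across the libraries. In CPM, SCN9A, SCN1A and SCN2A were each highest in control replicates 1 and 3 and lowest in Oxy@Lipo/Gel replicate 1. SCN1A and SCN2A held few counts, so their likeness to SCN9A is uncertain. SCN9A was higher in all controls than in any Oxy@Lipo/Gel library. SCN1A had that order only after scaling to library size, since Oxy@Lipo/Gel replicate 2 and control replicate 2 each held 3 counts. SCN7A had its highest values in Oxy@Lipo/Gel replicates 2 and 3, and SCN3A overlapped. Alpha subunit genes are related in sequence, and how reads that fit several genes were counted is not given in the sources used here, so their split is uncertain. Strand use in counting is not given either, so a gene and an antisense partner may share counts.

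Among the 3 nearest patterns to each of the other tested genes were LIPC for SCN9A (root mean square difference 0.213, where SCN9A spread by 0.783), TULP2 for SCN8A (0.128 and 0.534), SOX17 for SCN3A (0.109 and 0.527), MFSD6L and BTBD16 for SCN4A (0.106 each and 0.655) and KIRREL1 for SCN4B (0.124 and 0.582). Each was taken from 14117 genes over 6 libraries. With so few libraries many genes come near any pattern.

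Of the other sodium channel genes, the sensory neuron channels were barely detected. SCN10A had 2, 1 and 4 counts in the Oxy@Lipo/Gel libraries, against 2, 1 and 1 in the control libraries, and SCN11A had 0, 2 and 5 in the Oxy@Lipo/Gel libraries, against 0, 2 and 0 in the control libraries. Both encode channels of nociceptive neurons, and at this depth no difference was detectable.

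The beta subunit genes SCN2B and SCN3B did not pass. SCN2B had 74, 63 and 87 counts in the Oxy@Lipo/Gel libraries, against 112, 110 and 92 in the control libraries, a log2 difference of -0.68 ± 0.34 (SE, edgeR adjusted p = 0.282). SCN3B had 26, 36 and 47 counts in the Oxy@Lipo/Gel libraries, against 32, 13 and 150 in the control libraries, a log2 difference of -0.89 ± 0.81 (SE, edgeR adjusted p = 0.543). Control replicate 3 was the highest SCN3B library, as it was for SCN1A and SCN2A.

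Partners that anchor or modify these channels had fold changes in both directions. Of 16 listed genes, such as the scaffold ankyrin-G gene ANK3 and the ubiquitin ligase gene NEDD4L, 9 had log2 fold changes above 0 and 7 below 0, with a median of 0.29. Over all tested genes, 8786 of 18676 had log2 fold changes above 0, with a median of -0.04. In edgeR 0 of the 16 passed and 4 had an unadjusted p under 0.05, against 23.3% of all tested genes. DESeq2 called 3, against 13.3% of all tested genes. NRCAM, an adhesion protein of nodes of Ranvier, measured 2.53, 2.57 and 3.16 CPM in the Oxy@Lipo/Gel libraries, against 5.43, 6.51 and 14.3 CPM in the control libraries, without overlap (log2 fold change -1.67, edgeR adjusted p = 0.101). CNTN1, an axonal adhesion protein that binds sodium channels, measured 9.08, 52.0 and 71.6 CPM in the Oxy@Lipo/Gel libraries, against 12.9, 4.68 and 12.8 CPM in the control libraries (log2 fold change 2.12, edgeR adjusted p = 0.169). NFASC, which clusters channels at nodes and initial segments, averaged 12.0 ± 6.31 CPM in Oxy@Lipo/Gel libraries and 5.27 ± 1.37 CPM in controls (edgeR adjusted p = 0.203). Of the remaining lists, those of epithelium, endothelium, macrophages and mast cells, neuroendocrine cells and adipocytes had 0 genes past edgeR's test, with 2, 1, 2, 0 and 0 at an unadjusted p under 0.05 and 0, 0, 1, 0 and 0 called by DESeq2.

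**Figure D5:**
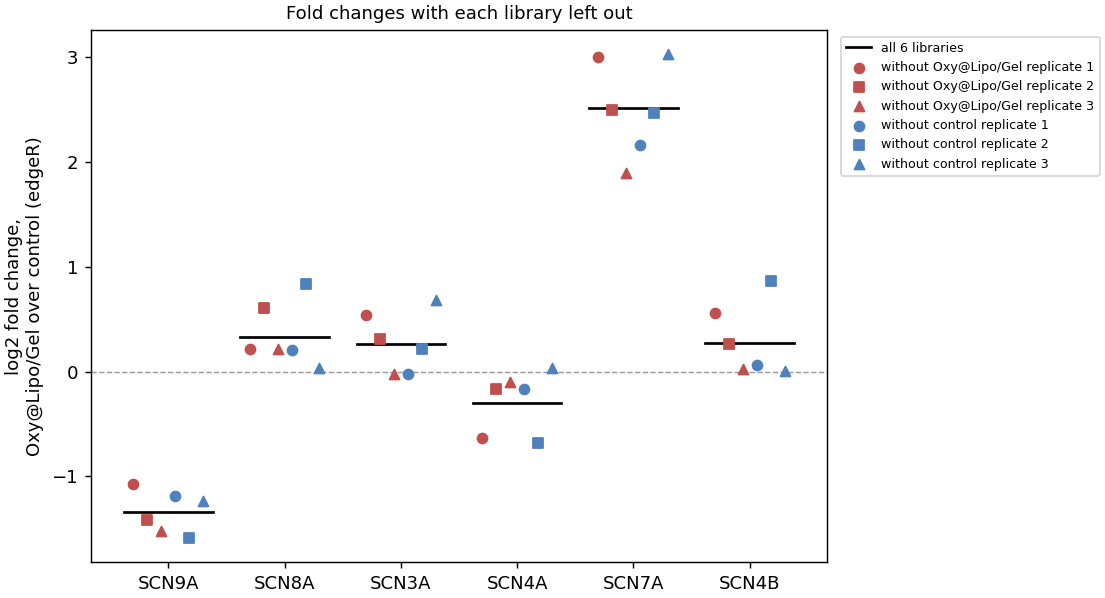
Log2 fold change of Oxy@Lipo/Gel over control from edgeR (vertical axis) for the 6 tested genes, with all 6 libraries (line) and with each library left out (points). SCN9A stays between -1.58 and -1.07 and SCN7A between 1.89 and 3.02, while SCN3A and SCN4A cross 0.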

How the data were processed

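Gene counts and FPKM values were deposited by the authors for 6 libraries. Per the labels' protocols, RNA was poly(A)-selected, libraries were strand-specific by dUTP, and reads were paired. Per the submitters' processing notes, the builds named, with no role stated, are Mmul_8.0.1, rheMac8 and the mouse build GRCm38. No label or file header names the aligner, counter or annotation. Groups and replicate numbers came from the labels' descriptions. The deposited counts were whole numbers. In all 17796 genes that had at least 5 counts per library, count, FPKM and column total gave 1 whole-number gene length (within 0.01 base), so the deposited FPKM holds no independent measurement. No replicate pair agreed within sampling noise.

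Groups were compared across all genes with edgeR 4.0.16 (R 4.3.3): TMM, filterByExpr (count 10, total 15), quasi-likelihood F test, group as only term, Benjamini-Hochberg adjustment at 0.05. SE is the log2 fold change divided by the root of F. DESeq2 1.42.0 and limma 3.58.1 served as alternatives. The exact intervals of count ratios and the floors cover counting error only, while the edgeR intervals include the spread between libraries. The described genes, the lists and the rule for named genes (family genes, up to 4 per list by smallest p, the 3 nearest patterns) were chosen with earlier results of these data known. Some genes that the rule names are not reported here. Figures used Python 3.11.15 and matplotlib 3.10.9.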

Additional observations from a re-analysis of the deposited data

How the results depend on the processing

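Under all 16 alternatives SCN7A stayed above 0 and SCN9A below 0, with log2 fold changes of 0.74 to 3.02 and -1.58 to -0.27. The values nearest 0 came from log2(FPKM + 1), a scale that shrinks low genes by construction. Among the 8 genes, edgeR called 0 with all libraries, DESeq2 called 2 (SCN7A at 2.55, SCN9A at -1.31), and with a library left out the count was 0 to 1 (SCN7A at 3.00 without Oxy@Lipo/Gel replicate 1). With a library left out, SCN3A ranged from -0.026 to 0.68, and was below 0 when Oxy@Lipo/Gel replicate 3 or control replicate 1 was omitted. SCN4A ranged from -0.68 to 0.034 and SCN3B from -1.33 to 0.55, both above 0 when control replicate 3 was omitted. The cause was not tested. Over all genes, 287 were called (159 higher, 128 lower), against 183 (104 and 79) with library totals only, 2492 (1395 and 1097) in DESeq2, and 0 to 628 (0 to 521 higher, 0 to 107 lower) with a library left out. Leaving out Oxy@Lipo/Gel replicate 1 gave 628 genes, replicate 3 of that group 20, and control replicate 2 gave 139. edgeR called 0 when Oxy@Lipo/Gel replicate 2, control replicate 1 or control replicate 3 was omitted, with 2271, 3189 and 4858 genes at an unadjusted p under 0.05. With the replicate number as a block edgeR called 0 genes (0 higher, 0 lower, 2866 at an unadjusted p under 0.05), with SCN7A at 2.22 and SCN9A at -1.35. Deviations of same-numbered libraries from their group means correlated at 0.234, -0.350 and -0.162. Those of unlike-numbered libraries ran from -0.300 to 0.370. The labels state no pairing, and with 3 libraries per group these correlations cannot decide whether the numbers pair the libraries. Depth limits SCN1A, SCN10A and SCN11A most, since most of their libraries hold 3 counts or fewer.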
